A study of Saccharomyces cerevisiae and Kluyveromyces marxianus with 18 samples.

Results

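The genes described here encode the enzymes that make and break down the neutral lipids of yeast, sterol esters and triacylglycerols. They were found as the rows of the deposited tables whose S. cerevisiae S288C entry names ARE1 (YCR048W), ARE2 (YNR019W), DGA1 (YOR245C), LRO1 (YNR008W), TGL1 (YKL140W), YEH1 (YLL012W), YEH2 (YLR020C), TGL3 (YMR313C), TGL4 (YKR089C) or TGL5 (YOR081C). The S. cerevisiae table had a row for 10 of the 10 genes, and the Kluyveromyces marxianus table had a row for 6 of the 10. No K. marxianus row named ARE1, TGL1, YEH1 or TGL5. The 16 rows stood among 11501 gene rows, 5330 of K. marxianus and 6171 of S. cerevisiae, and all 16 passed the filter on low counts. None of the 16 genes overlapped another annotated gene.

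Yeast keeps surplus sterols and fatty acids as sterol esters and triacylglycerols, which form the core of lipid droplets budding from the endoplasmic reticulum. Sterol acyltransferases and diacylglycerol acyltransferases fill these stores, and sterol ester hydrolases and triacylglycerol lipases empty them when membranes need sterols or fatty acids. Both the synthesis of sterols and the desaturation of fatty acids use molecular oxygen, so yeast growing without oxygen is commonly fed ergosterol and Tween 80, a source of oleic acid.

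Poly(A) RNA was sequenced from chemostat cultures of wild-type K. marxianus CBS6556 and wild-type S. cerevisiae CEN.PK113-7D, an industrial thermotolerant yeast and a laboratory strain, with 2 biological replicates in each group. All cultures ran at a dilution rate of 0.1 per h and pH 6 on synthetic medium with urea and antifoam. The medium of aerobic cultures held 7.5 g/L glucose and 10 mg/L ergosterol and no Tween 80. For oxygen-limited cultures and for the anaerobic cultures called TE, glucose was 20 g/L, Tween 80 was 420 mg/L and ergosterol was again 10 mg/L. The anaerobic cultures called T received the same glucose and Tween 80 without ergosterol. An anaerobic group with 20 g/L glucose and neither supplement, called unsupplemented here, existed for S. cerevisiae. Glucose and Tween 80 therefore changed together with oxygen in each comparison with the aerobic group, and their parts cannot be told apart. Sample titles carry a code whose meaning the labels do not give. Of the 10 comparisons within a species, 2 lie within 1 code: for K. marxianus that of T with TE cultures, and for S. cerevisiae that of unsupplemented with TE cultures. In the other 8 the groups compared carry different codes, so what the code marks and the condition cannot be told apart. The comparisons with aerobic cultures share the aerobic libraries, and those with TE cultures share the TE libraries. In bulk RNA, fewer cells with a transcript and less of it per cell cannot be told apart.

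Total counts ran from 6510449 to 10660870 in the K. marxianus libraries and from 2849618 to 13112466 in those of S. cerevisiae. Unsupplemented replicate 2 stood apart: it had the lowest total, and 1 gene took 19.8% of its counts, against at most 1.2% in the other S. cerevisiae libraries. The biological coefficient of variation was 15.5% in K. marxianus and 32.1% in S. cerevisiae, and 12.8% in S. cerevisiae without the unsupplemented group. Where a S. cerevisiae comparison does not use that group, counts of calls are therefore given from the fit of all 10 libraries and from the fit of the 8 libraries without it. Comparisons that use the unsupplemented group cannot be made in the fit of 8 libraries. A gene was called at a Benjamini-Hochberg adjusted p below 0.05 in edgeR's quasi-likelihood test over all genes tested, 5143 in K. marxianus and 5868 in S. cerevisiae. Levels are CPM, counts scaled to a common library size with TMM factors, and levels of different genes are compared as CPM per kilobase of gene. The TMM factor of unsupplemented replicate 2 was 0.371, which raises every CPM of that library. In the other S. cerevisiae libraries the factor lay between 0.97 and 1.21. Among hypoxic and aerobic marker genes of S. cerevisiae, TIR1 stood between 4.20 and 10.3 CPM in the aerobic and oxygen-limited libraries and between 2023 and 27546 CPM in the anaerobic ones. The hypoxic ANB1 stood between 0.14 and 5.49 CPM in the former and between 412 and 2320 CPM in the latter. The aerobic marker CYC1 stood at 540 and 489 CPM in the aerobic libraries and higher, at 1706 and 704 CPM, in the oxygen-limited ones. In the anaerobic libraries CYC1 lay between 6.35 and 56.3 CPM.

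Under aerobic conditions ARE2 had the highest length-scaled level of the 10 S. cerevisiae genes, at 81.8 CPM per kilobase, followed by YEH1 at 71.5 and DGA1 at 70.6, whose libraries overlapped each other. TGL1 followed at 49.0 and TGL3 at 32.6. YEH2 at 27.2, TGL5 at 25.6 and TGL4 at 25.1 formed a run in which each gene's libraries overlapped those of its neighbour. LRO1 at 15.6 and ARE1 at 10.98 were lowest. In K. marxianus LRO1 led at 111 CPM per kilobase and YEH2 followed at 66.2. The libraries of ARE2 at 37.8 and TGL4 at 36.5 overlapped, DGA1 stood at 33.0 and TGL3 was lowest at 13.1.

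**Figure D1:**
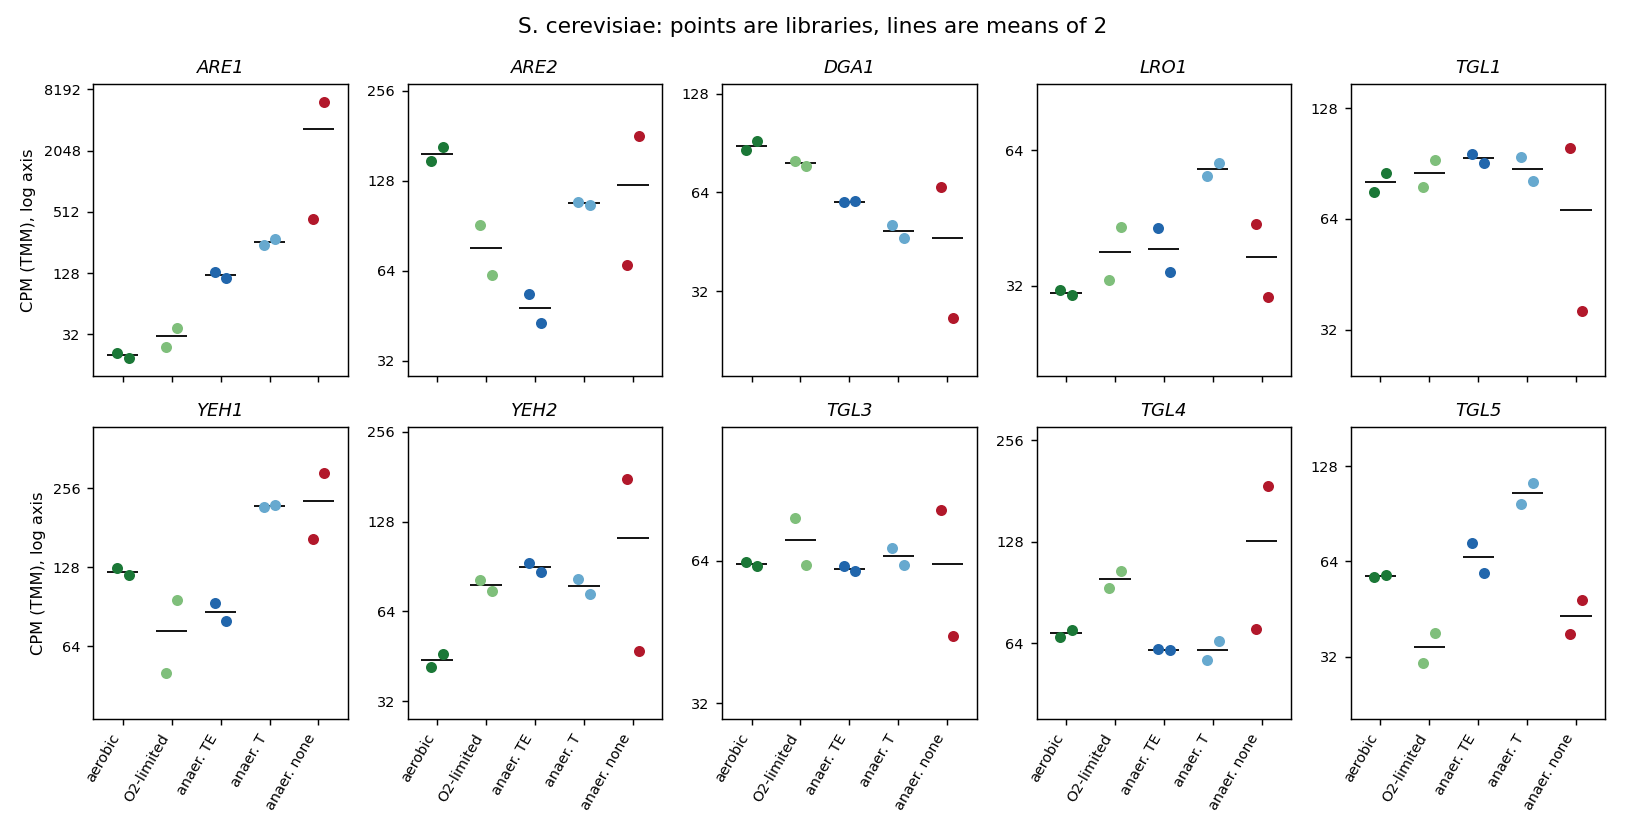
Level of the 10 S. cerevisiae genes in each library, in CPM on a log axis with its own range for each gene, by group. Points are libraries and lines are means of 2; ARE1 climbs from about 20 CPM in the aerobic libraries to 437 and 6226 CPM in the unsupplemented ones, and the unsupplemented libraries stand apart from each other for several genes.

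The sterol acyltransferases Are1 and Are2 join a fatty acid to a sterol at the endoplasmic reticulum. In S. cerevisiae, Are2 is known as the main activity of aerobic cells and Are1 as the enzyme with more activity on sterol precursors. ARE1 (SCEN_C01370) lies on the plus strand of chromosome 3 at 225105 to 226919 in the authors' CEN.PK113-7D annotation, and ARE2 (SCEN_N03550) on the plus strand of chromosome 14 at 655031 to 656959.

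ARE1 was measured at 21.1 and 18.7 CPM in the aerobic libraries and at 23.9 and 37.0 CPM in the oxygen-limited ones. It reached 130.5 and 115 CPM in TE cultures and 241 and 275 CPM in T cultures. The unsupplemented libraries held 437 and 6226 CPM, from 5163 and 6585 counts. The groups did not overlap, and they ascended from aerobic through oxygen-limited, TE and T to unsupplemented. The 2 unsupplemented libraries differed from each other more than any other pair did, so the size of that last step rested on replicate 2.

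ARE2 was lower in TE than in aerobic cultures. It stood at 149.7 and 166 CPM in the aerobic libraries, 91.3 and 62.0 CPM under oxygen limitation, and 53.7 and 42.8 CPM in TE cultures. In T cultures it was measured at 109 and 106 CPM, above both TE libraries and below both aerobic ones. The unsupplemented libraries, at 66.8 and 181 CPM, enclosed the values of the T cultures.

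**Figure D2:**
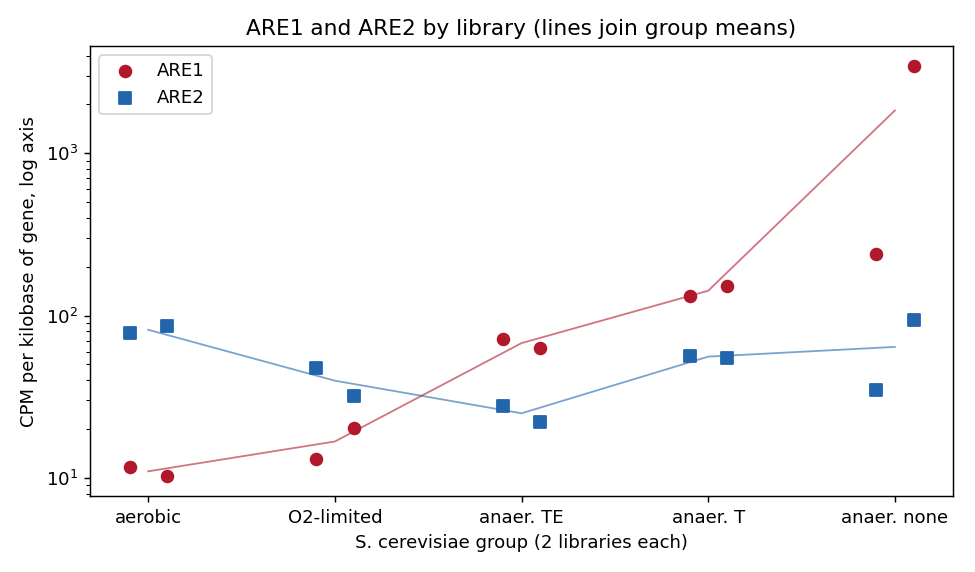
ARE1 (circles) and ARE2 (squares) of S. cerevisiae in CPM per kilobase of gene on a log axis, by group, with a point for each library and lines joining the group means. ARE2 lies above ARE1 in the aerobic and oxygen-limited libraries, and ARE1 lies above ARE2 in every anaerobic library.

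The share of ARE1 in the length-scaled sum of ARE1 and ARE2 changed over accordingly. It was 13.05% and 10.7% in the aerobic libraries and 21.7% and 38.8% in the oxygen-limited ones. In TE cultures it was 72.1% and 74.1%, and in T cultures 70.1% and 73.4%, so the ranges of these 2 groups overlapped. Unsupplemented libraries had 87.4% and 97.3%. The sum itself was 89.3 and 96.2 CPM per kilobase in the aerobic libraries and 99.7 and 85.6 in TE cultures, and these ranges overlapped. T cultures, at 189 and 207 CPM per kilobase, lay above both.

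The first comparison asks how the transcripts differ between oxygen-limited and aerobic cultures of S. cerevisiae. In the fit of all 10 libraries 0 of the 10 genes were called, where 14.1% of all genes tested were. Of the 10 genes, 2 had an unadjusted p under 0.05, and DESeq2 called 1 of the 10, TGL5, against 26.1% of all genes. In the fit without the unsupplemented group 6 of the 10 were called, near the 61.9% of all genes. ARE1 was higher there by 0.63 ± 0.20 on the log2 scale (SE; edgeR adjusted p = 0.0259), and ARE2 was lower, with a log2 fold change of -1.03 ± 0.19 (edgeR adjusted p = 0.00207). DESeq2 called neither ARE1 nor ARE2, and the pair of groups fitted alone did not call ARE1. The other 4 called genes encode lipid hydrolases and are described with their classes.

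In TE against aerobic cultures, the fit of all 10 libraries called ARE2, which fell by 1.71 on the log2 scale (SE 0.45, edgeR adjusted p = 0.0457). It was 1 of 10 called genes, against 13.1% of all genes. That call was lost with RLE scaling and when any 1 of the 8 libraries outside the unsupplemented group was left out. Over all alternatives the adjusted p ranged from 4.87e-08 to 0.281. ARE1 had a log2 fold change of 2.62 ± 0.99 and was not called in this fit (edgeR adjusted p = 0.130). Without the unsupplemented group 4 of the 10 were called, against 58% of all genes. ARE1 was then higher by 2.67 ± 0.20 (edgeR adjusted p = 3.18e-05) and ARE2 lower at -1.66 ± 0.19 (edgeR adjusted p = 0.000246).

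The TE and oxygen-limited cultures received the same medium and differed in oxygen supply and in title code. In the fit of all 10 libraries 0 of the 10 genes were called, where 2.11% of all genes were. Of the 10, 1 had an unadjusted p under 0.05, and DESeq2 called 1, TGL5, against 10.1% of all genes. Without the unsupplemented group 5 of the 10 were called, against 38.7% of all genes. ARE1 was higher in TE cultures by 2.04 ± 0.20 (edgeR adjusted p = 0.000389), and ARE2 was lower at -0.64 ± 0.19 (edgeR adjusted p = 0.0317). DESeq2 called neither ARE1 nor ARE2, and the pair of groups fitted alone did not call ARE2.

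Leaving out ergosterol, in T against TE cultures, gave 0 called genes of 10 in the fit of all 10 libraries, where 5.04% of all genes were called. Of the 10, 3 had an unadjusted p under 0.05, and DESeq2 called 2, YEH1 and TGL5, against 16.6% of all genes. Without the unsupplemented group 6 of the 10 were called, against 50.2% of all genes. Both acyltransferase genes were higher in T cultures, ARE1 by 1.08 ± 0.19 (edgeR adjusted p = 0.00250) and ARE2 by 1.16 ± 0.19 (edgeR adjusted p = 0.00194). DESeq2 called neither ARE1 nor ARE2.

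The unsupplemented cultures were compared with T and with TE cultures in the fit of all 10 libraries. Against TE cultures 1 of the 10 genes was called, where 8.67% of all genes were. This was ARE1, which rose by 4.76 ± 1.08 on the log2 scale (edgeR adjusted p = 0.0387). Without unsupplemented replicate 2 its log2 fold change was 1.76 and it was still called. The call was lost when any 1 of the 8 libraries outside the unsupplemented group was left out, and in the pair of groups fitted alone with or without the replicate block. Over all alternatives the adjusted p ranged from 1.40e-06 to 0.500. Against T cultures ARE1 had a log2 fold change of 3.69 ± 1.03 and was not called (edgeR adjusted p = 0.0565), and without replicate 2 the value was 0.67, which was called (edgeR adjusted p = 0.0407, with a range over all alternatives of 3.44e-06 to 0.438). Leaving out unsupplemented replicate 2 gave 3 called genes of 10 against TE cultures and 5 against T cultures, where 30.3% and 42.9% of all genes were called. Leaving out replicate 1 gave 7 and 9, where 73.4% and 73.1% of all genes were called.

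**Figure D3:**
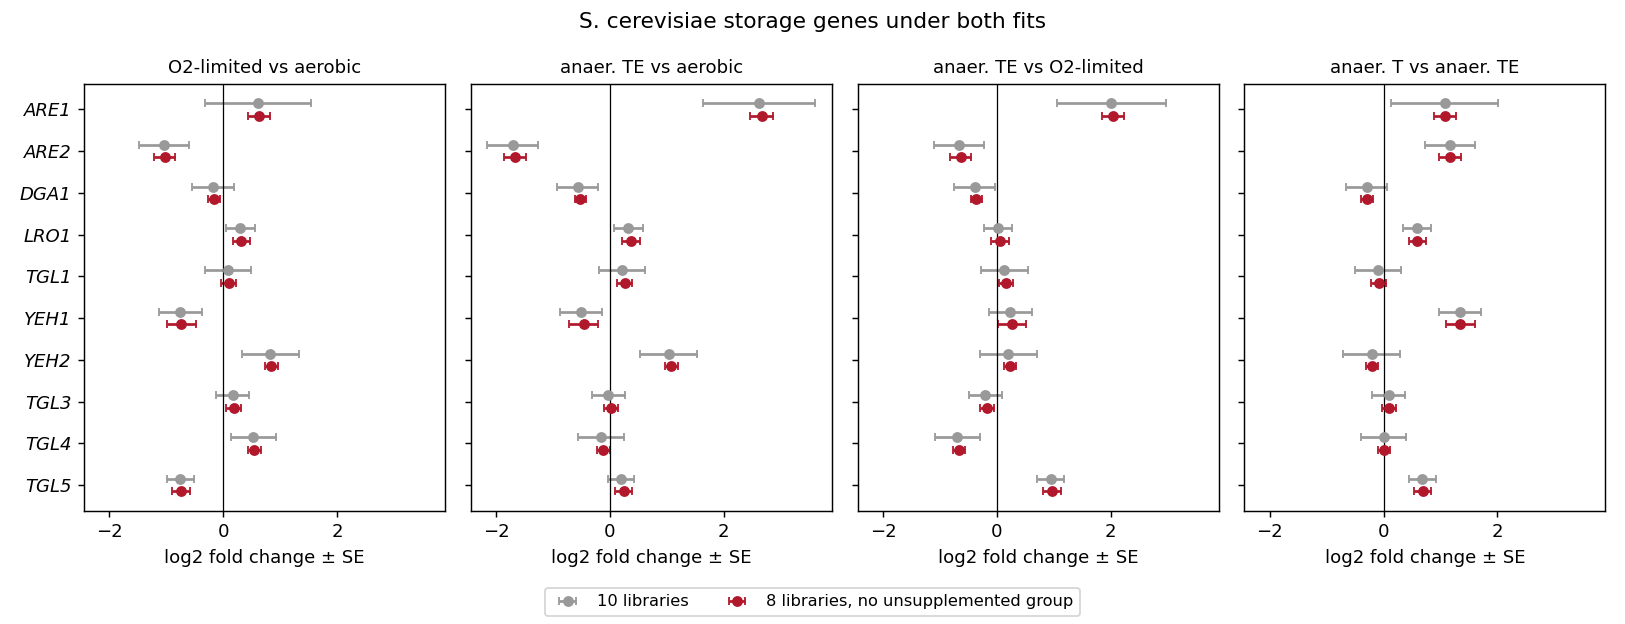
Log2 fold change of the 10 S. cerevisiae genes in the 4 comparisons that do not use the unsupplemented group, with the standard error as bars. Grey points come from the fit of 10 libraries and red points from the fit of 8 libraries; the positions nearly coincide and the bars are shorter for most genes in the fit of 8.

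Triacylglycerol is made by Dga1, which takes the fatty acid from acyl-CoA, and by Lro1, which takes it from a phospholipid. DGA1 of S. cerevisiae stood at 85.9 and 91.5 CPM in the aerobic libraries and at 80.0 and 77.0 CPM under oxygen limitation. It was measured at 59.7 and 60.1 CPM in TE cultures, 50.9 and 46.4 CPM in T cultures, and 66.7 and 26.5 CPM in unsupplemented ones. The 4 groups other than the unsupplemented one did not overlap and descended in that order. In the fit without that group DGA1 was lower in TE than in aerobic cultures at -0.52 ± 0.10 (edgeR adjusted p = 0.00260). It was also lower in TE than in oxygen-limited cultures at -0.36 ± 0.10, and in T than in TE cultures at -0.29 ± 0.10 (edgeR adjusted p = 0.0232 and 0.0387). DESeq2 and the pair of groups fitted alone did not call DGA1 in TE against oxygen-limited cultures.

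LRO1 of S. cerevisiae held 31.3 and 30.5 CPM in the aerobic libraries, and its highest values were 56.2 and 60.1 CPM in T cultures. The remaining libraries lay between 30.3 and 44.0 CPM. LRO1 was higher in T than in TE cultures by 0.59 ± 0.15 in the fit without the unsupplemented group (edgeR adjusted p = 0.0132). The summed length-scaled level of DGA1 and LRO1 lay between 80.2 and 88.1 CPM per kilobase in the aerobic and oxygen-limited libraries. It lay between 65.1 and 69.2 in TE and T cultures.

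Sterol esters are cleaved by Tgl1 and Yeh1 on lipid droplets and by Yeh2 at the plasma membrane. YEH1 was measured at 127 and 119 CPM in the aerobic libraries, 50.6 and 95.8 under oxygen limitation, and 93.3 and 79.7 in TE cultures. In T cultures it stood at 217 and 222 CPM, above every aerobic, oxygen-limited and TE library. The unsupplemented libraries held 164 and 293 CPM. In the fit without the unsupplemented group YEH1 was lower under oxygen limitation than in aerobic cultures at -0.73 ± 0.25 (edgeR adjusted p = 0.0338). DESeq2 and the pair of groups fitted alone did not call that value. In the same fit without the unsupplemented group, YEH1 was higher in T than in TE cultures by 1.35 ± 0.25 (edgeR adjusted p = 0.00341).

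YEH2 stood at 41.8 and 46.1 CPM in the aerobic libraries and between 73.4 and 93.1 CPM in the oxygen-limited, TE and T libraries, with no overlap. The unsupplemented libraries, at 178 and 47.3 CPM, differed from each other by more than that whole span. Without that group YEH2 was higher under oxygen limitation by 0.85 ± 0.11 and in TE cultures by 1.08 ± 0.11, each against aerobic cultures (edgeR adjusted p = 0.000425 and 0.000148). TGL1 lay between 76.0 and 99.6 CPM in every library but unsupplemented replicate 2, where it was at 35.9 CPM from 38 counts. TGL1 was called in none of the 6 comparisons in the fit of all 10 libraries, nor in the 4 without the unsupplemented group. It had no unadjusted p under 0.05 in either fit.

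Triacylglycerol is broken down by the lipases Tgl3, Tgl4 and Tgl5, of which Tgl3 and Tgl4 are known as the main ones. TGL5 of S. cerevisiae held 57.2 and 58.2 CPM in the aerobic libraries, 30.5 and 37.97 under oxygen limitation, and 73.2 and 58.7 in TE cultures. It reached 97.2 and 114 CPM in T cultures and stood at 37.6 and 48.2 CPM in unsupplemented ones. T cultures were highest, and the oxygen-limited and unsupplemented libraries overlapped at the low end. In the fit of all 10 libraries TGL5 fell in unsupplemented against T cultures, with a log2 fold change of -1.31 ± 0.25 (edgeR adjusted p = 0.0238). It was 1 of 10 called genes there, against 11.3% of all genes, and the pair of groups fitted alone did not call it. The call was also lost when any 1 of the 6 aerobic, TE and T libraries was left out, and over all alternatives the adjusted p ranged from 9.22e-05 to 0.438. In the fit without the unsupplemented group TGL5 was lower under oxygen limitation than in aerobic cultures at -0.74 ± 0.15 (edgeR adjusted p = 0.00410). It was higher in TE than in oxygen-limited cultures by 0.97 ± 0.16 and in T than in TE cultures by 0.68 ± 0.15 (edgeR adjusted p = 0.00273 and 0.00693).

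TGL4 was highest in unsupplemented replicate 2 at 187 CPM and next under oxygen limitation, at 93.2 and 105 CPM. The other 7 libraries lay between 57.3 and 70.8 CPM. Without the unsupplemented group TGL4 was higher under oxygen limitation than in aerobic cultures by 0.55 ± 0.11, and lower in TE than in oxygen-limited cultures at -0.66 ± 0.11 (edgeR adjusted p = 0.00341 and 0.00338). TGL3 was called in neither fit, and no unadjusted p of it was under 0.05. It lay between 60.9 and 81.7 CPM in all libraries except unsupplemented replicate 2, where 47 counts gave 44.4 CPM.

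**Figure D4:**
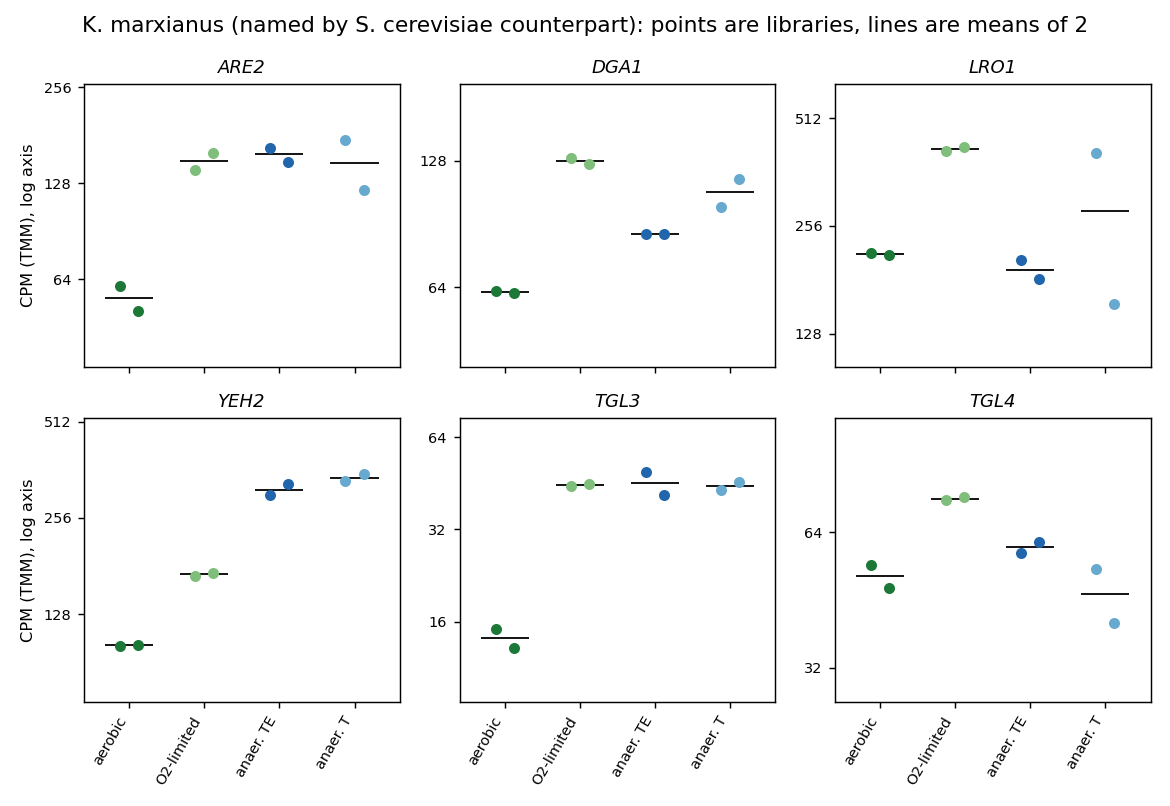
Level of the 6 K. marxianus genes in each library, in CPM on a log axis with its own range for each gene, by group. Points are libraries and lines are means of 2; ARE2, YEH2 and TGL3 lie above the aerobic libraries in all other groups, and the 2 T libraries of LRO1 stand at 411 and 155 CPM.

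In K. marxianus the single acyltransferase row carried the S. cerevisiae name ARE2 (KM6556v0_B004850, plus strand of chromosome 2, 1029910 to 1031388 in the authors' CBS6556 annotation). The roles given for K. marxianus genes are those of the S. cerevisiae proteins. ARE2 stood at 61.0 and 50.9 CPM in the aerobic libraries and at 141 and 159 CPM under oxygen limitation. It was at 166 and 150 CPM in TE cultures and at 175 and 122 CPM in T cultures. Every library other than the aerobic ones lay above both of them, and the other 3 groups overlapped each other.

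Under oxygen limitation 5 of the 6 K. marxianus genes were called against aerobic cultures, all higher, where 47% of all genes were called and 22% were called higher. The median log2 fold change of the 6 was 1.01, and that of all genes was -0.08. ARE2 rose by 1.42 ± 0.19 (edgeR adjusted p = 0.00111). The lipase gene TGL3 rose by 1.65 ± 0.14, from 15.2 and 13.2 CPM to 44.4 and 44.9 CPM (edgeR adjusted p = 0.000124). DGA1 rose by 1.04 ± 0.11, from 62.7 and 61.9 CPM to 130.4 and 126 CPM (edgeR adjusted p = 0.000361).

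The sterol ester hydrolase gene YEH2 (KM6556v0_B002150) rose by 0.74 ± 0.10, from 102.0 and 102.1 CPM to 169 and 172 CPM (edgeR adjusted p = 0.00118). TGL4 rose by 0.57 ± 0.15, from 54.1 and 48.2 CPM to 75.5 and 76.6 CPM (edgeR adjusted p = 0.0187). The call of TGL4 was lost when any 1 of the 4 aerobic and oxygen-limited libraries was left out. LRO1 stood at 215 and 213 CPM in the aerobic libraries and at 415 and 427 CPM under oxygen limitation, without overlap. Its log2 fold change of 0.98 ± 0.38 was not called (edgeR adjusted p = 0.0720), and the authors' deposited table gives an adjusted p of 0.0304 for it. Over the 12 alternatives this log2 fold change lay between 0.95 and 1.04, and it was called under 4 of them.

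In TE against aerobic cultures of K. marxianus 4 of the 6 genes were called, all higher, where 56.5% of all genes were called and 27.9% were called higher. TGL3 rose by 1.68 ± 0.14 to 49.1 and 41.4 CPM (edgeR adjusted p = 8.42e-05). YEH2 rose by 1.62 ± 0.10 to 302 and 326 CPM (edgeR adjusted p = 2.13e-05). ARE2 rose by 1.496 ± 0.194 (edgeR adjusted p = 0.000612), and DGA1 rose by 0.46 ± 0.11 to 85.9 and 85.8 CPM (edgeR adjusted p = 0.0104). The call of DGA1 was lost without either aerobic library or without TE replicate 2, and the adjusted p ranged from 2.17e-05 to 0.0734 over all alternatives. LRO1, at 205 and 182 CPM, and TGL4, at 57.7 and 61.1 CPM, were not called.

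Between TE and oxygen-limited cultures of K. marxianus, which shared their medium, 3 of the 6 genes were called, near the 52% of all genes. YEH2 rose by 0.88 ± 0.10 (edgeR adjusted p = 0.000564). The 2 triacylglycerol synthesis genes were both lower in TE cultures. DGA1 fell by 0.58 on the log2 scale (SE 0.11, edgeR adjusted p = 0.00447). LRO1 fell by 1.12 (SE 0.38, edgeR adjusted p = 0.0435), and its call was lost when any 1 of the 6 aerobic, oxygen-limited and TE libraries was left out. Over all alternatives its adjusted p ranged from 2.95e-08 to 0.194. The summed length-scaled level of DGA1 and LRO1 was 285 and 289 CPM per kilobase under oxygen limitation, 152 and 140 in TE cultures, and 145 and 143 in aerobic cultures.

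Leaving out ergosterol gave 0 called genes of 6 in K. marxianus, where 37.3% of all genes were called between T and TE cultures. Of the 6, 1 had an unadjusted p under 0.05. This was DGA1, with 99.6 and 116 CPM in T cultures and a log2 fold change of 0.33 ± 0.11 (edgeR adjusted p = 0.0542). DESeq2 and RLE scaling each called 1 gene, against 41.6% and 36.9% of all genes. Without T replicate 1, 4 of the 6 were called, near the 63.7% of all genes. LRO1 had 411 and 155 CPM in the 2 T libraries, which enclosed the TE values, and this was its widest replicate pair. YEH2 in T cultures stood at 334 and 351 CPM, above both TE libraries, and was not called. TGL3 at 43.2 and 45.6 CPM lay within the TE range, and TGL4 at 52.9 and 40.3 CPM lay below it.

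The responses of the 6 genes present in both species were compared in 1 fit of 3885 genes matched 1 to 1, over the 4 conditions that both species share. In oxygen-limited against aerobic cultures 3 of the 6 differed between the species, where 56.4% of all matched genes did. In TE against aerobic cultures 4 of the 6 did, against 44.6%. In TE against oxygen-limited cultures 2 of the 6 did, against 46.4%, and in T against TE cultures 2 of the 6 did, against 50.5%. The T and TE libraries share a title code in K. marxianus and not in S. cerevisiae, so that last difference sets a contrast within a code against one between codes.

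**Figure D5:**
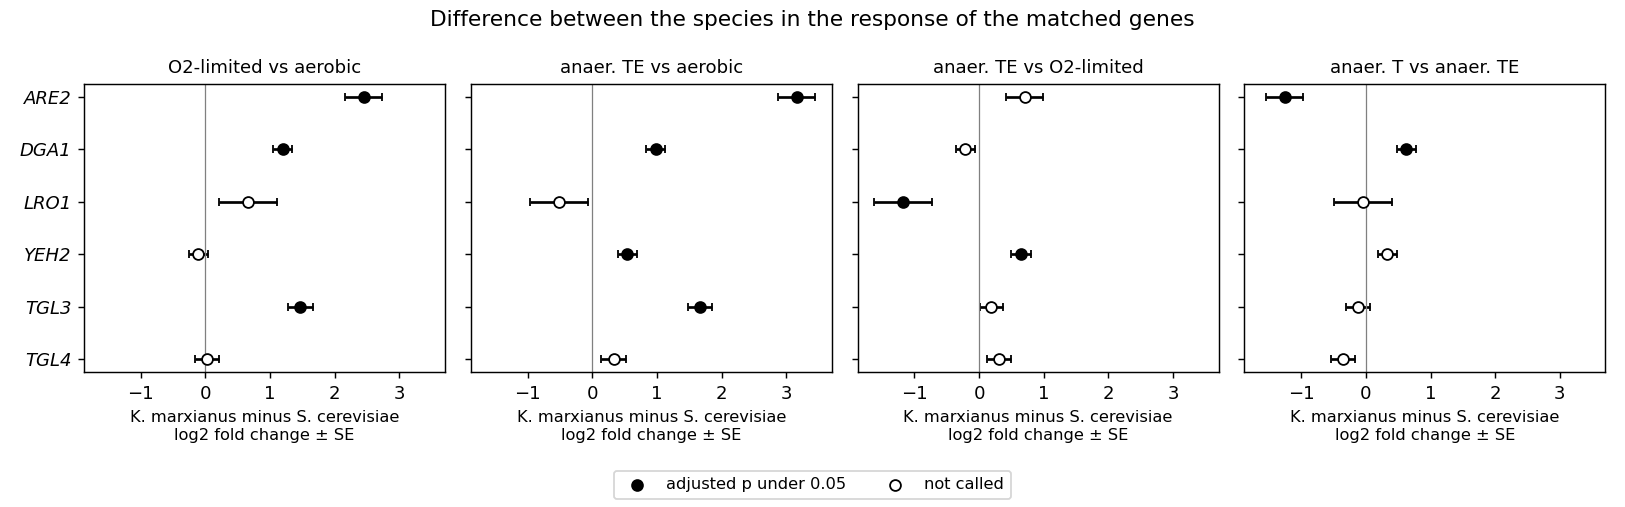
Difference between the species in log2 fold change, K. marxianus minus S. cerevisiae, for the 6 matched genes in 4 comparisons, with the standard error as bars. Filled points have an adjusted p under 0.05 and open points do not; ARE2 lies at 2.45 and 3.16 in the comparisons with aerobic cultures and at -1.25 in T against TE cultures.

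ARE2 gave the widest difference of the 6 genes in the comparisons with aerobic cultures. It rose in K. marxianus and was lower in S. cerevisiae, where the oxygen-limited value passed in the fit without the unsupplemented group and not in that of all 10 libraries. The log2 fold change of K. marxianus exceeded that of S. cerevisiae by 2.45 ± 0.29 under oxygen limitation and by 3.16 ± 0.29 in TE cultures (edgeR adjusted p = 1.83e-05 and 3.52e-06). For TGL3 the differences were 1.47 ± 0.19 and 1.66 ± 0.19, and for DGA1 they were 1.199 ± 0.147 and 0.98 ± 0.15. The YEH2 level of TE cultures exceeded that of aerobic ones in both species, and the K. marxianus value was larger by 0.54 ± 0.15 (edgeR adjusted p = 0.0100). The S. cerevisiae YEH2 value passed in the fit without the unsupplemented group and not in that of all 10 libraries. Since S. cerevisiae also has ARE1 and K. marxianus has no row of that name, the ARE2 difference compares 1 gene of a pair with a single gene. K. marxianus also has no row named TGL1, YEH1 or TGL5. The differences of YEH2, TGL3 and TGL4 therefore leave out the further S. cerevisiae sterol ester hydrolase and triacylglycerol lipase genes.

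A list of 27 other genes of neutral lipid metabolism was counted as a whole. It covers acyl-CoA supply, the steps from glycerol phosphate to diacylglycerol, lipid droplet formation, and further lipases and sterol acetylation. In K. marxianus, where 21 of the 27 had a row, 8 rose and 4 fell under oxygen limitation against aerobic cultures, where 47% of all genes were called. In TE against aerobic cultures 9 rose and 3 fell, near the 56.5% of all genes. The largest of these rises were 2.24 ± 0.15 for ACB1, the acyl-CoA binding protein gene, and 1.80 ± 0.23 for the acyltransferase gene ALE1 (edgeR adjusted p = 2.88e-05 and 0.000592). PET10, which encodes a lipid droplet coat protein, rose by 1.51 ± 0.14 under oxygen limitation. It was lower in TE than in oxygen-limited cultures at -2.13 ± 0.14, and lower in T than in TE cultures at -1.10 ± 0.14. TGL2, a mitochondrial lipase gene, was lower than in aerobic cultures at -1.43 ± 0.14 under oxygen limitation and at -1.78 ± 0.15 in TE cultures. The adjusted p-values from edgeR for these 5 values of PET10 and TGL2 were at most 0.00222.

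In TE against oxygen-limited cultures of K. marxianus 7 of the 21 rose and 6 fell, where 52% of all genes were called. ACB1, which encodes the acyl-CoA binding protein, rose by 2.17 ± 0.15. SLC1 and ALE1, which encode acyltransferases that make phosphatidic acid or remodel phospholipids, rose by 1.56 ± 0.12 and 1.205 ± 0.229. YJU3, the monoacylglycerol lipase gene, was lower at -1.36 ± 0.26. In T against TE cultures 8 rose and 3 fell, where 37.3% of all genes were called. LOA1 rose by 1.70 ± 0.23, ALE1 by 1.22 ± 0.23 and SLC1 by 1.18 ± 0.12. The adjusted p-values from edgeR for these 7 values were at most 0.00729. The calls of LOA1, ALE1, SLC1 and PET10 in T against TE cultures were lost when that pair of groups was fitted alone, and that of ALE1 was also lost without either TE library.

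In S. cerevisiae the fit of all 10 libraries called 1 of the 27 higher under oxygen limitation and 1 higher in TE cultures, each against aerobic cultures, where 14.1% and 13.1% of all genes were called. Both calls were SLC1, at 1.01 ± 0.26 and 1.29 ± 0.26 (edgeR adjusted p = 0.0396 and 0.0179). Both calls were lost when any 1 of the 6 aerobic, TE and T libraries was left out, and the first also without either oxygen-limited library and with RLE scaling. Over all alternatives the adjusted p ranged from 0.000753 to 0.264 for the first and from 1.22e-07 to 0.170 for the second. The list had 0 called genes in TE against oxygen-limited cultures and 0 in T against TE cultures, where 2.11% and 5.04% of all genes were called. Unadjusted p was under 0.05 for 2 and 4 of the 27. Without the unsupplemented group the counts in these 4 comparisons were 22, 17, 11 and 12 of 27, beside 61.9%, 58%, 38.7% and 50.2% of all genes. PET10 was then lower in TE than in aerobic cultures at -2.05 ± 0.13. ATF2, the sterol acetyltransferase gene, was higher there by 2.47 ± 0.24 (edgeR adjusted p = 1.03e-05 and 0.000105).

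In unsupplemented against T cultures 6 of the 27 were called, all higher, where 11.3% of all genes were called in either direction. Against TE cultures 5 were, all higher, where 8.67% of all genes were called. ALE1 stood at 1305 ± 109 CPM (SD, n = 2) in unsupplemented cultures and at 169 ± 8.9 in T cultures, a log2 fold change of 2.95 ± 0.26 (edgeR adjusted p = 0.00371). YJU3 rose by 1.91 ± 0.23 and ACB1 by 2.77 ± 0.50 in the same comparison (edgeR adjusted p = 0.00900 and 0.0224). ACB1 had 2317 ± 1583 CPM (SD, n = 2) in the unsupplemented group, and without its replicate 2 the log2 fold change was 1.72. SCS3, a lipid droplet gene with a log2 fold change of 4.77 ± 1.22, had an SD above its mean in the unsupplemented group, and without replicate 2 its value was 1.12. The calls against T cultures were lost for all 4 genes when either T library was left out, with 2 called of all genes each time, and in the pair of groups fitted alone. Those of ACB1 and SCS3 were also lost without any 1 of the 4 aerobic and TE libraries, and that of SCS3 with RLE scaling and without either oxygen-limited library.

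In the deposited gene ontology terms, the lipid particle term was carried by 7 of the 10 S. cerevisiae genes and 4 of the 6 K. marxianus genes, and by 0.940% and 0.941% of all annotated genes. The plasma membrane term was carried by YEH2 alone among them in both species.

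Across the 10 S. cerevisiae libraries, the genes whose log2(CPM + 1) was most like that of ARE1 were TDA4, SUN4 and RCK1, with Pearson's r of 0.995, 0.994 and 0.991. For ARE2 they were TOM71, ICE2 and VPS34, with r of 0.945, 0.943 and 0.941. For ARE2 of K. marxianus over 8 libraries they were KM6556v0_C005690, KM6556v0_F002180 and CUE1, with r of 0.991, 0.988 and 0.987. These values describe the libraries, which share their groups.

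In the authors' deposited tables, adjusted p-values below 0.05 were given for 6 of the 6 K. marxianus genes in oxygen-limited against aerobic cultures, for 4 in TE against aerobic cultures and for 0 in T against TE cultures. The shares of all genes in the authors' deposited tables were 49.9%, 58.1% and 41.4%. For S. cerevisiae the authors' deposited tables gave 1, 2, 1, 1 and 2 of the 10 genes in the 5 comparisons other than unsupplemented against TE, beside 22.8%, 21.2%, 7.67%, 12.8% and 29.6% of all genes. The log2 fold changes of all genes in the authors' deposited tables correlated with those computed here at r of at least 0.999 across genes in the 8 tables used.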

How the data were processed

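Raw counts of read pairs per gene were deposited for both species. The authors made these counts with featureCounts 1.6.0 on gene features, per the file headers, from pairs with both ends mapped. No strand option was set, and multi-mapping and multi-overlapping pairs were left out. Bowtie 1.2.1.1, SAMtools 1.3.1 and edgeR 3.28.1 are named in the submitters' processing notes. The authors' deposited comparison tables hold, per gene, log2 values (fold change and mean CPM), a likelihood-ratio score, a p-value, its adjusted form and a −log10 column. Their test and design are not given in the sources used here. The authors' deposited tables for 2 K. marxianus comparisons are identical; both match T against TE, so the authors' table of TE against oxygen-limited cultures is not used here.

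Counts were tested with edgeR 4.0.16 in R 4.3.3: TMM scaling, filterByExpr, a quasi-likelihood fit of all groups of a species, and Benjamini-Hochberg adjustment over all genes tested, with a threshold of 0.05. Residual degrees of freedom were 4 in K. marxianus and 5 in S. cerevisiae. The species difference was an interaction in 1 fit without the unsupplemented group. Standard errors were derived from the test statistic. Alternatives were RLE scaling, no filter, each library left out, the pair of groups alone, the fit without the unsupplemented group, DESeq2 1.42.0, and a replicate block. With a library left out, a lone library is assumed to vary like the other groups. The script was tested on simulated data.

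The genes and lists were chosen with earlier results of these data known. Of the 27-gene list, genes called and changed by 1 or more on the log2 scale, or the 2 largest called in either direction, could be named, and examples are given. The 3 genes most like ARE1 and ARE2 by Pearson's r are named. The genome given for S. cerevisiae was S288C and not CEN.PK113-7D, so coordinates are those of the authors' annotations.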

Additional observations from a re-analysis of the deposited data

Results flagged for a closer look

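The difference between the species in the response to a change of condition was taken as K. marxianus minus S. cerevisiae. It was tested with edgeR's quasi-likelihood test for each of the 6 matched genes in 4 comparisons, and passed in 11 instances. Between 2 and 4 of the 6 genes passed per comparison, while the share of all matched genes lay between 44.6% and 56.4%. The count alone therefore does not set the 6 genes apart. In oxygen-limited against aerobic cultures the difference was 2.45 for ARE2, 1.199 for DGA1 and 1.47 for TGL3, in log2 units. In TE against aerobic cultures it was 3.16 for ARE2, 0.98 for DGA1, 0.54 for YEH2 and 1.66 for TGL3. These 7 kept their call under all 18 alternatives tried.

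In TE against oxygen-limited cultures the difference was 0.65 for YEH2 and -1.17 for LRO1. That of YEH2 kept its call under the 18 alternatives, and that of LRO1 kept it under 4 of the 18, with values from -1.37 to -0.97. In T against TE cultures it was -1.25 for ARE2 and 0.62 for DGA1, and both kept their call under the 18 alternatives. In the fit of all K. marxianus groups neither gene was called in that comparison. In S. cerevisiae both were called in the fit without the unsupplemented group and not in that of all 10 libraries.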

How the results depend on the processing

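Of 849 values of the genes described under alternatives, 692 kept their direction and side of the threshold, 53 lost a call and 104 gained one, and 0 changed sign. A further 51 results without a call or an unadjusted p under 0.05 are reported as levels. Of their 767 values, 53 changed sign and 28 were called under an alternative. Depth limits unsupplemented replicate 2, where 28 to 51 counts stand behind 6 genes. Counts are of genes described, then of all genes, and comparisons of S. cerevisiae run in the order oxygen-limited, then TE, against aerobic, TE against oxygen-limited, T against TE, unsupplemented against T and against TE. The cause of the changes was not tested.

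In S. cerevisiae the pair of groups fitted alone called 4, 6, 3, 6, 0 and 0 described genes, and 2928, 4049, 1065, 3747, 0 and 0 of all genes. Without the unsupplemented group the first 4 comparisons gave 6, 4, 5 and 6 described genes, and 3632, 3405, 2270 and 2944 of all genes. DESeq2 gave 1, 2, 1, 2, 2 and 3 described genes, and 1531, 1391, 591, 977, 2042 and 1666 of all genes. RLE scaling called 0 in TE against aerobic cultures. In all genes, the main counts were 827, 769, 124, 296, 664 and 509.

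Leaving out 1 library gave 0 to 6, 0 to 4, 0 to 5, 0 to 6, 0 to 9 and 0 to 7 described genes in these comparisons. For all genes the ranges were 71 to 3661, 147 to 3437, 0 to 2262, 3 to 2963, 2 to 4291 and 42 to 4306. The highest counts came without an unsupplemented library.

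In K. marxianus the pair alone called 3873 of all genes instead of 2418 in oxygen-limited against aerobic cultures, and 0 instead of 1917 in T against TE cultures. In the latter, RLE scaling and DESeq2 each called 1 described gene. Leaving out 1 library gave 1294 to 3669 of all genes under oxygen limitation and 1894 to 3910 in TE against aerobic cultures. It gave 1665 to 3777 in TE against oxygen-limited cultures and 629 to 3274 in T against TE cultures, with 0 to 4 described genes in the last. For the species difference, leaving out 1 library moved ARE2 most of the described genes in TE against oxygen-limited cultures, with log2 values from 0.42 to 0.98. In T against TE cultures it moved LRO1 most, from -0.90 to 0.49.

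Libraries of 2 pairs of groups share a title code. In these pairs, each library also shares a longer part of its title with a library of the other group. The labels do not call that a pairing, and the main test does not use it. The replicate block by that longer part, with the pair of groups fitted alone, called 888 of all genes and 0 described genes in K. marxianus (T against TE). In unsupplemented against TE cultures of S. cerevisiae the replicate block called 56 of all genes and 0 described genes. The difference between the replicates of a group, taken in each of the 2 groups, correlated between the groups at r of 0.20 across 5143 genes in K. marxianus. In S. cerevisiae this r was -0.09 across 5868 genes.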
